A study of Mus musculus with 24 samples.

Results

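The p53, MDM2 and cell cycle arrest genes described here are the transcription factor gene Trp53, its negative regulators Mdm2 and Mdm4, and 7 genes that p53 is known to switch on: Cdkn1a, Ccng1, Btg2, Ppm1d, Gtse1, Plk2 and Zmat3. They were taken by symbol from 4 tables in which the authors compared Mof-depleted with control cells. All 10 of the 10 have a row in both fibroblast tables, which list 43626 genes each, 9 have a row in the Adriamycin table of the podocytes and 4 in its vehicle table. The study asked how gene expression changes when Mof is depleted in mouse embryonic fibroblasts (MEFs) and in MPC5 podocytes, with and without Adriamycin. Mof, whose gene symbol is Kat8, is a histone acetyltransferase that acts mainly on lysine 16 of histone H4. Adriamycin (doxorubicin) is a drug that traps topoisomerase II on DNA and leaves double-strand breaks. Poly(A) RNA of 24 samples was sequenced, in 8 groups of 3.

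The groups were Mof knockout MEFs with Adriamycin and wild type MEFs with Adriamycin, each given 0.1 µg/ml for 24 h, and Mof knockout and wild type MEFs with the vehicle DMSO, all at passage 2. Differentiated MPC5 podocytes at passage 20 carried a Mof knockdown or a scramble control and received Adriamycin at 0.25 µg/ml for 24 h or DMSO. MPC5 is a conditionally immortalised mouse podocyte line made with a temperature-sensitive SV40 large T antigen, a viral protein that binds p53, and whether any of it remained in these cells was not analysed here. The labels do not say how the knockout or the knockdown was made, or whether the 3 samples of a group came from separate cultures. The p-values therefore reflect variation among these 3 samples, and that variation may be purely technical. In bulk samples, fewer cells of a type and less RNA per cell cannot be told apart.

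In unstressed cells p53 protein is short-lived, because MDM2 attaches ubiquitin to it and MDM4 blocks its activation domain. DNA damage activates kinases that free p53 from both, and p53 then switches on Mdm2 itself, which closes a feedback loop. It also switches on Cdkn1a, whose product p21 inhibits cyclin-dependent kinases and so holds the retinoblastoma family and the DREAM complex in their repressing form, and the cell stops before DNA replication or mitosis. Since p53 is controlled mainly as a protein, its own mRNA level says little about its activity.

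The windows around the start of 4 members are shown because they differ in the p53 and cell cycle motifs they hold. Each runs from 250 bases before to 50 bases after a RefSeq transcript start (GRCm38.p6), which matched 9 of the 10 members in 12 windows and gave no entry for Zmat3. Capitals mark matches on either strand to the p53 decamer, which is one arm of the p53 response element, to CATGNNNNNNCATG, the core of a full element, or to TTTAAA, a form of the cell cycle homology region that DREAM reads. The Cdkn1a window is chr17:29090729-29091028 on the plus strand, the Mdm2 window chr10:117710709-117711008 on the minus strand, the Ccng1 window chr11:40755237-40755536 on the minus strand and the Gtse1 window chr15:85859457-85859756 on the plus strand.
Cdkn1a: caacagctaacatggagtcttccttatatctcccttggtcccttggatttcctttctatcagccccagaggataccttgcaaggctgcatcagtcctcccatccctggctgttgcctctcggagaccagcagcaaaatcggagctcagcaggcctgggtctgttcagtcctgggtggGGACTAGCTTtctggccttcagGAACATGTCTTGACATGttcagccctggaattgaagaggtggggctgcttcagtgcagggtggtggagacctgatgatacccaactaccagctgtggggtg
Mdm2: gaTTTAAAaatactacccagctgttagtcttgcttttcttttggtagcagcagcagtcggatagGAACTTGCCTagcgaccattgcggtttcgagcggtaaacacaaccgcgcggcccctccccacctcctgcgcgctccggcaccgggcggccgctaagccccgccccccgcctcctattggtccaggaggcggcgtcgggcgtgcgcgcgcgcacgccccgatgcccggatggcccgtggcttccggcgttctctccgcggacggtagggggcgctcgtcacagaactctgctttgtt
Ccng1: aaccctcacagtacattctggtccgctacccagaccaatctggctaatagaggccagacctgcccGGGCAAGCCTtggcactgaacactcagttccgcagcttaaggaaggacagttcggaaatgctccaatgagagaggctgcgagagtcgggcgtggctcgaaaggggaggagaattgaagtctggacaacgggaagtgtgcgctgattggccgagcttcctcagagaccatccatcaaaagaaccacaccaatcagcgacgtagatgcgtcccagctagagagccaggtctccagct
Gtse1: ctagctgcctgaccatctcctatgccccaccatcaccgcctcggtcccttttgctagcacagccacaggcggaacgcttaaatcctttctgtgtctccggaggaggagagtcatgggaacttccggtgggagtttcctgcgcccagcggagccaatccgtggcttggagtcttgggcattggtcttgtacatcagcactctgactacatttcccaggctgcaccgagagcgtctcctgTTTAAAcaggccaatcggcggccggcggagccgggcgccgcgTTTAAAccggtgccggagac

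The p53 decamer occurred in 8.36% of the 32851 RefSeq windows and in 6 of the members' 12 windows. These belong to Trp53, Mdm2, Cdkn1a, Ccng1, Ppm1d and Gtse1. The Gtse1 match lies in a window not printed here, chr15:85859696-85859995, and the printed Gtse1 window holds none. The paired CATGNNNNNNCATG was in 0.712% of all windows and, among the members, only in the printed window of Cdkn1a. There it begins at position -48 from that transcript start and overlaps one of the window's 2 decamers. Cdkn1a has another window, chr17:29093519-29093818, around a start further downstream, which holds neither motif. TTTGAA, the usual form of the cell cycle homology region, was in 17.9% of all windows on either strand and in none of the members' windows. TTTAAA was in 13.2% of all windows and in those of 4 of the 9 matched members. That count is by gene, so a member with several windows counts once. In the printed windows it began at positions -12 and 30 for Gtse1 and -248 for Mdm2. In windows of Mdm4 and Plk2 it began at -195 and -24. A match is a description of letters in the window and no evidence of binding.

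The deposited files hold no value per sample, so a level is given here as the mean normalised count that the authors' mean count and fold change imply for each group. Depth per library is unknown. The tables were normalised separately, so levels set across them carry no test. Kat8 was lower in each of the authors' deposited tables, at 30.5% and 25.7% of the wild type level in knockout MEFs with Adriamycin and with vehicle and at 42.3% and 35.6% of the scramble level in knockdown podocytes. All 10 fibroblast markers examined were measured in the MEFs. Of the podocyte markers, Nphs1, which encodes nephrin, does not appear in the podocyte tables. Those tables list only genes past an adjusted p of 0.05, so its absence does not show that the transcript was missing.

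In MEFs with Adriamycin, 7 of the 10 members were higher in knockout than in wild type cells, none was lower, and Mdm4, Btg2 and Plk2 did not pass the test (also 0 lower at an unadjusted p below 0.05 by the authors' DESeq2). Of all 14139 genes tested in the authors' deposited table, 32.7% were called at an adjusted p below 0.05, with 16.6% higher and 16.1% lower. In MEFs with vehicle, 8 members were higher, Mdm4 was lower and Gtse1 did not pass, against 37.5% of 15605 genes called, with 17.8% higher and 19.6% lower. The median log2 fold change of the members was 0.33 with Adriamycin and 0.53 with vehicle, beside -0.02 and 0.01 over all genes tested. The 3 highest members with vehicle were Cdkn1a, Mdm2 and Ccng1, and with Adriamycin they were Trp53, Ppm1d and Gtse1.

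**Figure D1:**
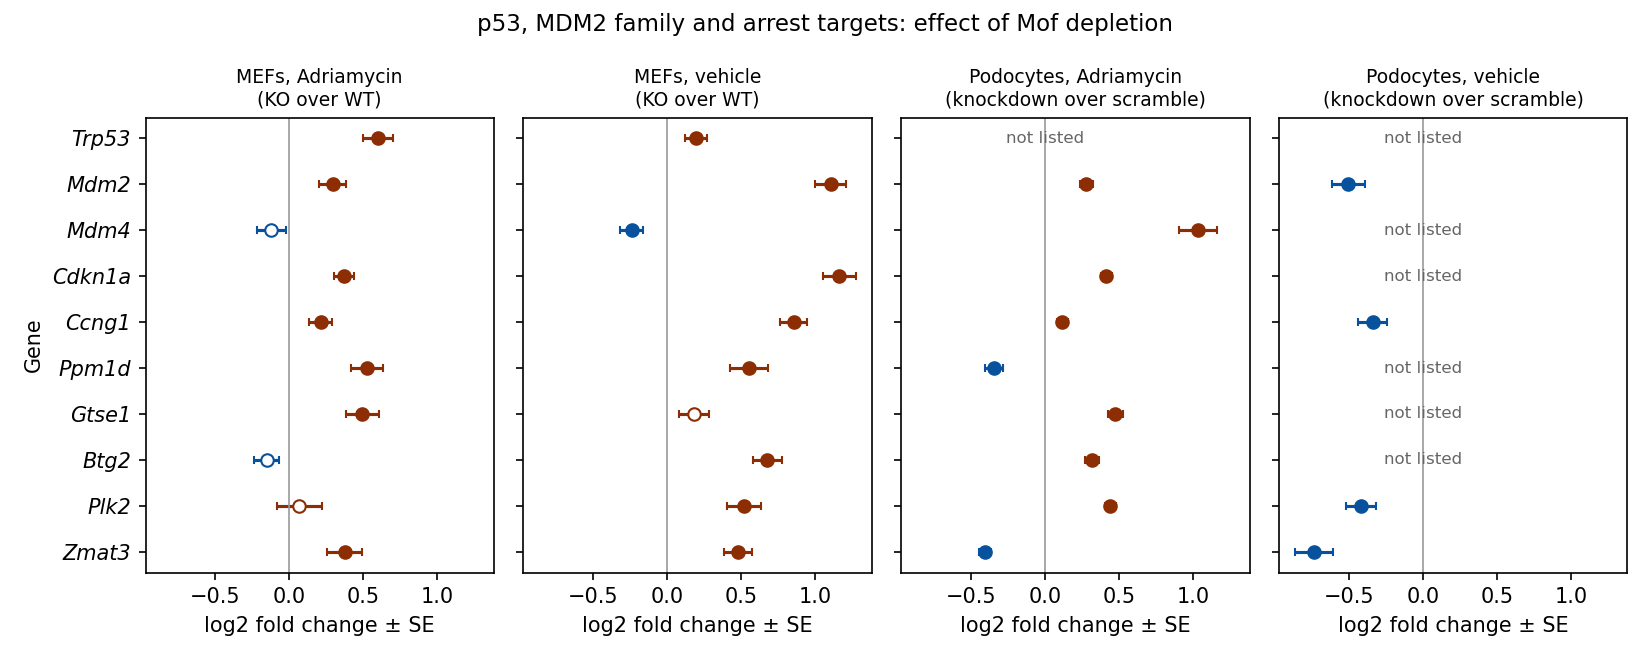
Log2 fold change of Mof-depleted over control cells for each member in the 4 tables, with bars of ± the authors' standard error. Filled points passed an adjusted p of 0.05. With vehicle, Cdkn1a at 1.16 and Mdm2 at 1.10 stand highest in MEFs, whereas the 4 members listed in podocytes lie between -0.73 and -0.34. The 6 members not listed there, Cdkn1a among them, have no value, since only genes that passed are listed.

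Trp53 itself (chromosome 11, 69580359 to 69591873, plus strand, GRCm38) rose in knockout MEFs in both conditions. With Adriamycin the authors' deposited table implies 5761 normalised counts in knockout and 3801 in wild type MEFs, a log2 fold change of 0.60 ± 0.10 (SE, adjusted p = 5.92e-08 by the authors' DESeq2) and a fold of 1.52 (95% interval 1.32 to 1.74). With vehicle the authors' deposited table implies 4500 in knockout and 3930 in wild type MEFs, a log2 fold change of 0.20 ± 0.08 (adjusted p = 0.0279 by the authors' DESeq2). The wild type levels of both tables lie close to each other, and the knockout level is the higher one in each.

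Mdm2 (chromosome 10, 117688875 to 117710758, minus strand), the ubiquitin ligase and feedback target of p53, was 2.15-fold higher in knockout MEFs with vehicle (95% interval 1.87 to 2.48), at 11232 normalised counts in knockout and 5222 in wild type cells. That is a log2 fold change of 1.10 ± 0.10 in the authors' deposited table (adjusted p = 5.00e-24 by the authors' DESeq2). With Adriamycin the levels in the authors' deposited table were 21767 in knockout and 17763 in wild type MEFs, a log2 fold change of 0.29 ± 0.09 (adjusted p = 0.00767 by the authors' DESeq2). The drug groups of both genotypes thus sit above either vehicle group, and the gap between genotypes is wide with vehicle and narrow with Adriamycin. Mdm4 (chromosome 1, 132959484 to 133030561, minus strand), which holds p53 inactive without a ligase activity of its own, fell with vehicle to 1505 in knockout against 1776 in wild type MEFs, with a log2 fold change of -0.24 ± 0.08 in the authors' deposited table (adjusted p = 0.00897 by the authors' DESeq2). With Adriamycin its log2 fold change in the authors' deposited table was -0.12 ± 0.10, which did not pass (adjusted p = 0.364 by the authors' DESeq2).

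Cdkn1a (chromosome 17, 29090976 to 29100727, plus strand), which encodes p21, gave the largest member fold with vehicle. It had 20439 normalised counts in knockout and 9131 in wild type MEFs, a fold of 2.24 (95% interval 1.93 to 2.60) and a log2 fold change of 1.16 ± 0.11 in the authors' deposited table (adjusted p = 6.03e-24 by the authors' DESeq2). With Adriamycin the authors' deposited table implies 37572 in knockout and 29089 in wild type MEFs, a log2 fold change of 0.37 ± 0.07 (adjusted p = 6.62e-07 by the authors' DESeq2). As for Mdm2, the wild type cells with drug exceed the knockout cells without it, and the genotypes differ less with drug. Ccng1 (chromosome 11, 40748552 to 40755311, minus strand), which encodes cyclin G1, a p53 target that recruits protein phosphatase 2A to MDM2, had 33650 in knockout and 18606 in wild type MEFs with vehicle, a log2 fold change of 0.85 ± 0.09 in the authors' deposited table (adjusted p = 1.66e-19 by the authors' DESeq2). With Adriamycin it had 48500 in knockout and 41821 in wild type MEFs, a log2 fold change of 0.21 ± 0.08 in the authors' deposited table (adjusted p = 0.0237 by the authors' DESeq2). Btg2 (chromosome 1, 134075170 to 134079120, minus strand), an antiproliferative protein that promotes mRNA deadenylation, rose with vehicle, at 2876 in knockout and 1799 in wild type MEFs, a log2 fold change of 0.68 ± 0.10 in the authors' deposited table (adjusted p = 3.14e-10 by the authors' DESeq2). With Adriamycin it had 5073 in knockout and 5637 in wild type MEFs, and its log2 fold change of -0.15 ± 0.08 in the authors' deposited table did not pass (adjusted p = 0.159 by the authors' DESeq2).

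Ppm1d (chromosome 11, 85311244 to 85347066, plus strand) encodes the phosphatase WIP1, which removes damage-induced phosphates from p53 and its kinases. It was higher in knockout MEFs by nearly the same step in both conditions, with log2 fold changes of 0.52 ± 0.11 with Adriamycin and 0.55 ± 0.13 with vehicle in the authors' deposited tables (adjusted p = 1.30e-05 and 7.07e-05 by the authors' DESeq2). Its implied levels in the authors' deposited tables were 871 in knockout and 606 in wild type MEFs with Adriamycin, and 472 in knockout and 322 in wild type MEFs with vehicle. Gtse1 (chromosome 15, 85859745 to 85876573, plus strand) encodes a G2 and S phase protein that binds p53 and lowers its level. It rose with Adriamycin, at 4118 in knockout and 2923 in wild type MEFs, a log2 fold change of 0.49 ± 0.11 in the authors' deposited table (adjusted p = 0.000156 by the authors' DESeq2). With vehicle its log2 fold change in the authors' deposited table was 0.18 ± 0.10 and did not pass (adjusted p = 0.140 by the authors' DESeq2).

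Plk2 (chromosome 13, 110395046 to 110400844, plus strand), a polo-like kinase of centriole duplication, rose with vehicle, at 7838 in knockout and 5481 in wild type MEFs, a log2 fold change of 0.52 ± 0.11 in the authors' deposited table (adjusted p = 4.19e-05 by the authors' DESeq2). With Adriamycin its log2 fold change of 0.07 ± 0.15 in the authors' deposited table did not pass (adjusted p = 0.768 by the authors' DESeq2), and its standard error was the widest of the members. Zmat3 (chromosome 3, 32334792 to 32366014, minus strand), a zinc finger RNA-binding protein, rose in both conditions. Its levels in the authors' deposited tables were 6259 in knockout and 4829 in wild type MEFs with Adriamycin (log2 fold change 0.37 ± 0.12, adjusted p = 0.00736 by the authors' DESeq2), and 4978 in knockout and 3574 in wild type MEFs with vehicle (0.48 ± 0.10, adjusted p = 5.36e-06 by the authors' DESeq2).

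Divided by the length of the annotated exons, the mean count in the Adriamycin MEF table ran from 12859 per kb for Ccng1 and 9381 for Cdkn1a, through 3888 for Mdm2, down to 233 for Ppm1d and 120 for Mdm4, as computed from the authors' deposited table. The same pair stood highest and the same pair lowest with vehicle, where the authors' deposited table gives 7440 for Ccng1, 4161 for Cdkn1a, 125 for Ppm1d and 111 for Mdm4. Whether neighbours in that order differ beyond the spread of samples was not tested. The exons of Cdkn1a share 273 bases with AC167363.2, a gene of unclear status on the other strand that the tables do not list, and no label or file header says if reads were assigned by strand.

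**Figure D2:**
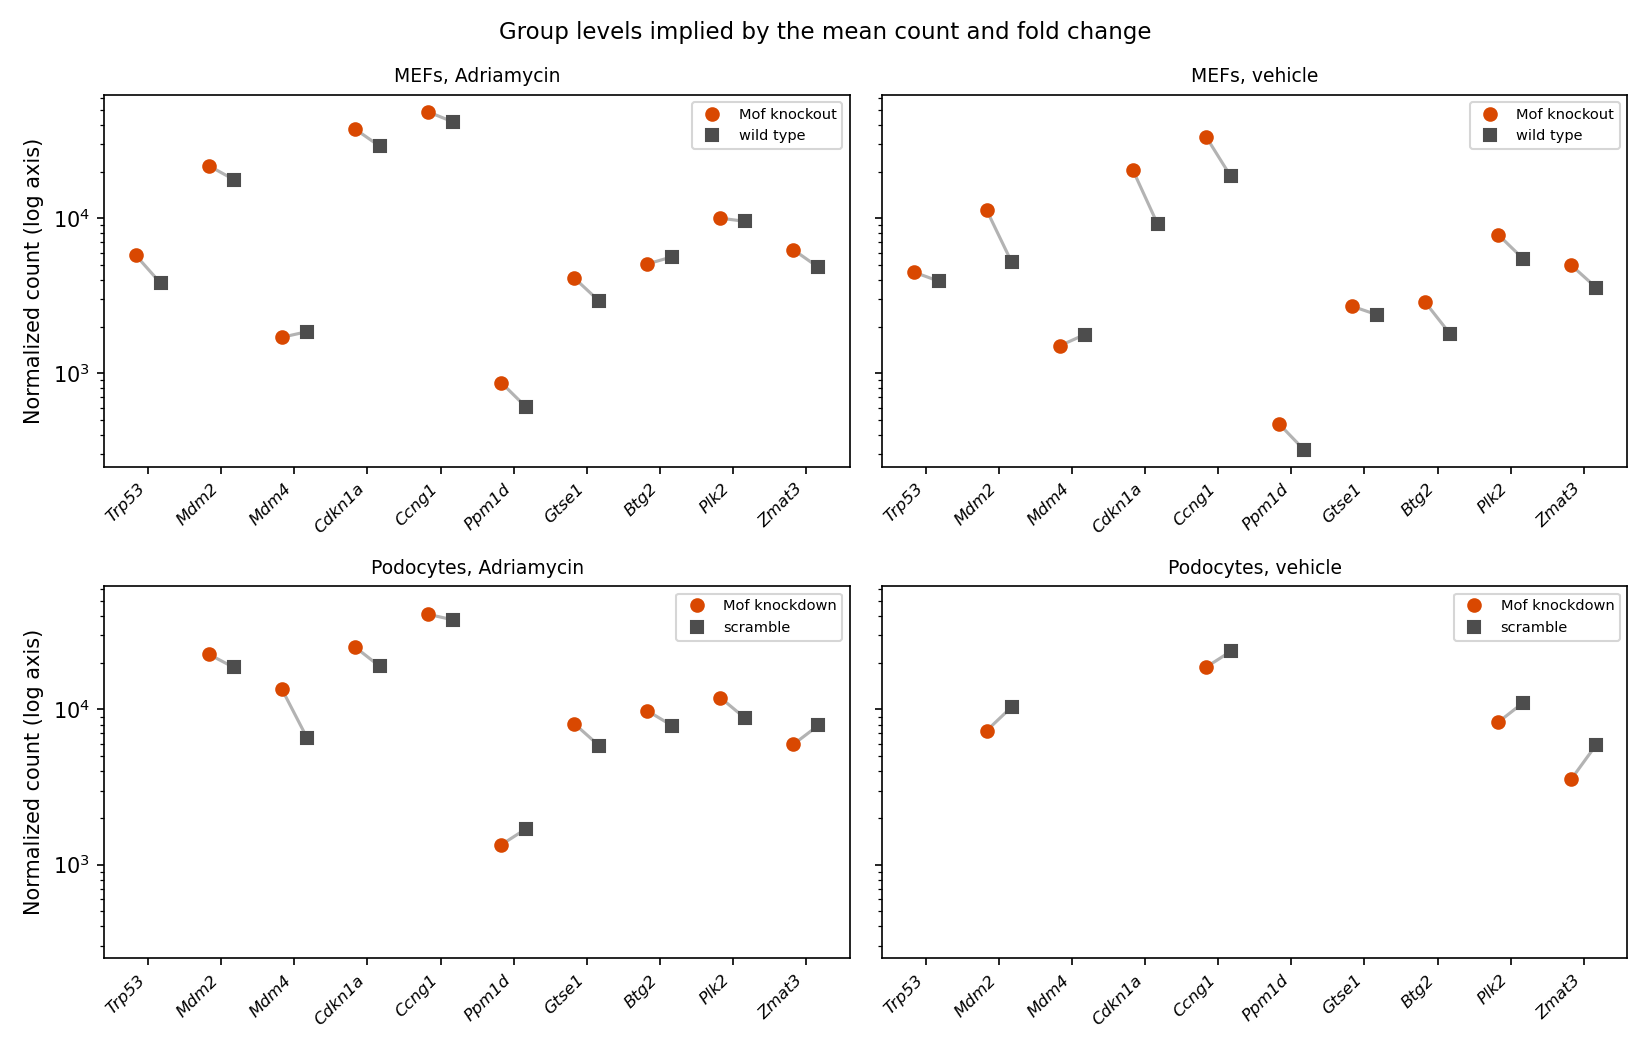
Mean normalised count of each member in the 8 groups on a log axis, as implied by the authors' mean count and fold change, with no error bars because the tables hold no value per sample. Mdm2 and Cdkn1a lie at 21767 and 37572 in knockout MEFs with Adriamycin, and at 5222 and 9131 in wild type MEFs with vehicle.

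The small changes of the Adriamycin table depended on its centre. After the fold changes of the authors' deposited table were centred on genes whose mean count reached 1000, a shift of 0.07, Mdm2 at 0.22 and Ccng1 at 0.14 no longer passed and Btg2 at -0.22 passed as lower, which makes 5 members higher and 1 lower. With vehicle the shift was 0.02 and Trp53, at 0.18, no longer passed.

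In podocytes with Adriamycin, 7 members were higher and 2 lower in knockdown than in scramble cells, and Trp53 was not listed. Of the 17184 genes tested in the authors' deposited table, 55.7% were called, 27.8% higher and 27.9% lower. In podocytes with vehicle, no member was higher and Mdm2, Ccng1, Plk2 and Zmat3 were lower, against 14.3% of 13876 genes called, 8.70% higher and 5.64% lower. The 6 members not listed with vehicle, and Trp53 with Adriamycin, either did not pass or were not tested, so no value can be given for them.

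In podocytes with Adriamycin both Mdm4 and Mdm2 rose in knockdown cells, whereas the phosphatase gene Ppm1d fell. Mdm4 was 2.04-fold higher (95% interval 1.71 to 2.43), at 13470 normalised counts in knockdown and 6595 in scramble cells, a log2 fold change of 1.03 ± 0.13 in the authors' deposited table (adjusted p = 7.63e-15 by the authors' DESeq2). Mdm2 had 22670 in knockdown and 18676 in scramble cells, a log2 fold change of 0.28 ± 0.04 in the authors' deposited table (adjusted p = 2.73e-10 by the authors' DESeq2). Ppm1d was lower, at 1341 in knockdown and 1699 in scramble cells, a log2 fold change of -0.34 ± 0.06 in the authors' deposited table (adjusted p = 4.60e-08 by the authors' DESeq2). Mdm4 was thus the member with the largest fold in podocytes with drug.

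Cdkn1a rose in podocytes with Adriamycin, with 25245 in knockdown and 18945 in scramble cells and a log2 fold change of 0.41 ± 0.04 in the authors' deposited table (adjusted p = 8.17e-25 by the authors' DESeq2). Gtse1 rose with a log2 fold change of 0.47 ± 0.05, Plk2 with 0.44 ± 0.04 and Btg2 with 0.32 ± 0.05 in the authors' deposited table (adjusted p = 1.66e-20, 9.23e-30 and 2.12e-10 by the authors' DESeq2). Ccng1 moved least, with 41065 in knockdown and 37863 in scramble cells and a log2 fold change of 0.12 ± 0.03 in the authors' deposited table (adjusted p = 0.00173 by the authors' DESeq2). Zmat3 fell to 5960 in knockdown against 7887 in scramble cells, with a log2 fold change of -0.40 ± 0.04 in the authors' deposited table (adjusted p = 4.64e-21 by the authors' DESeq2). The intervals are narrow in this table, so small steps passed.

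With vehicle the 4 listed members were all lower in knockdown podocytes. Zmat3 had 3552 in knockdown and 5904 in scramble cells, a fold of 0.602 and a log2 fold change of -0.73 ± 0.13 in the authors' deposited table (adjusted p = 8.86e-07 by the authors' DESeq2). Mdm2 had 7314 in knockdown and 10374 in scramble cells, a log2 fold change of -0.50 ± 0.11 in the authors' deposited table (adjusted p = 0.000214 by the authors' DESeq2). Plk2 and Ccng1 had log2 fold changes of -0.42 ± 0.10 and -0.34 ± 0.10 in the authors' deposited table (adjusted p = 0.000876 and 0.00576 by the authors' DESeq2). Mdm2, Plk2 and Ccng1 were lower with vehicle and higher with Adriamycin. That held for 3 of the 4 members listed in both podocyte tables, beside 221 of all 1518 genes listed in both, or 14.6%. The podocyte tables share no samples with each other.

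Whether the Mof effect itself differed between Adriamycin and vehicle was tested from the fold changes and standard errors of the authors' deposited tables, with Benjamini-Hochberg adjustment over all genes tested. In MEFs, 5 of the 10 members passed, 1 upward and 4 downward, against 7.09% of 13973 genes, 3.49% upward and 3.61% downward. The Adriamycin minus vehicle difference in log2 fold change, from the authors' deposited tables, was -0.83 ± 0.13 for Btg2, -0.81 ± 0.14 for Mdm2, -0.79 ± 0.13 for Cdkn1a and -0.64 ± 0.12 for Ccng1 (adjusted p = 9.86e-08, 1.37e-06, 2.11e-07 and 1.06e-05 by a Wald test on the DESeq2 values). For Trp53 the difference ran the other way, at 0.40 ± 0.12 from the authors' deposited tables (adjusted p = 0.0239 by the Wald test on the DESeq2 values). The knockout effect on p21, cyclin G1, MDM2 and BTG2 transcripts was therefore larger without the drug, and that on Trp53 larger with it. Ppm1d at -0.03 ± 0.16, Zmat3 at -0.10 ± 0.15, Mdm4 at 0.12 ± 0.13, Gtse1 at 0.31 ± 0.15 and Plk2 at -0.45 ± 0.19 in the authors' deposited tables did not pass.

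In podocytes the same difference could be formed only for genes listed in both tables, and those were chosen by passing in each. All 4 members passed, upward, against 63.4% of 1518 such genes, 31.5% upward and 31.9% downward. From the authors' deposited tables the difference was 0.86 ± 0.11 for Plk2, 0.78 ± 0.12 for Mdm2, 0.46 ± 0.10 for Ccng1 and 0.33 ± 0.14 for Zmat3 (adjusted p = 1.25e-14, 2.99e-10, 1.78e-05 and 0.0249 by the Wald test on the DESeq2 values). The Trp53 difference in MEFs and that of Zmat3 in podocytes missed an adjusted p of 0.01.

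**Figure D3:**
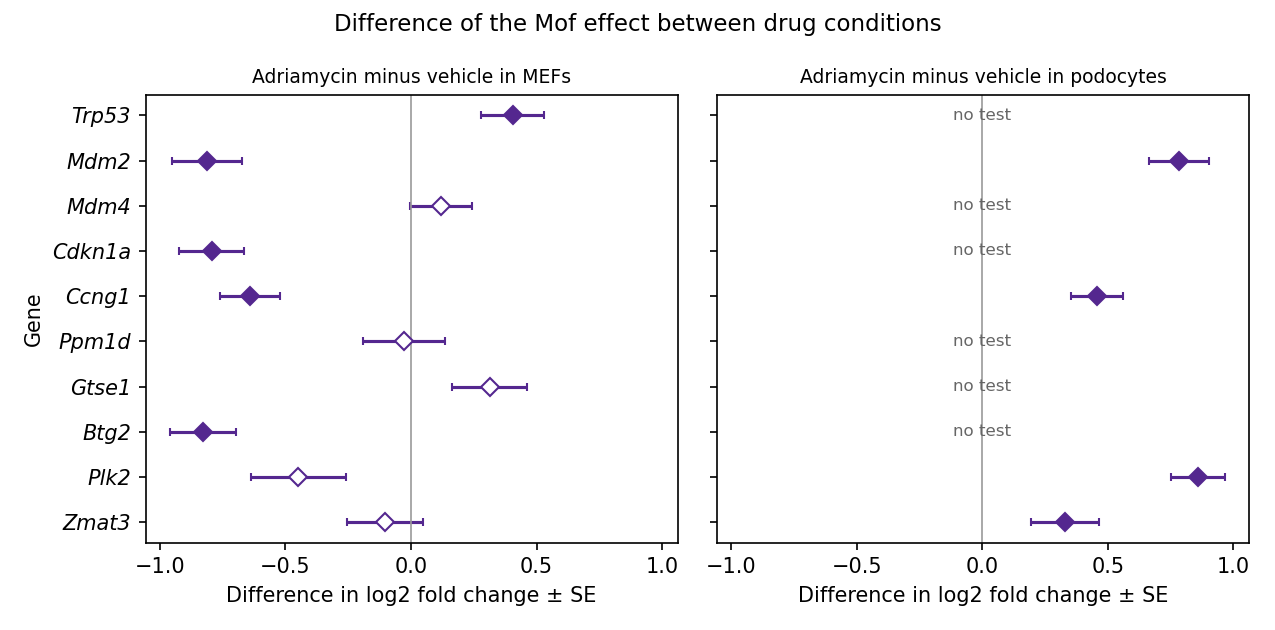
Adriamycin minus vehicle difference in the log2 fold change of Mof-depleted over control cells, with bars of ± its standard error. Filled points passed an adjusted p of 0.05. Mdm2 lies at -0.81 in MEFs and at 0.78 in podocytes.

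The levels behind these differences can be set side by side, although the tables were normalised separately and the ratio has no test. In MEFs the implied level with Adriamycin over that with vehicle, from the authors' deposited tables, was 1.94 in knockout and 3.40 in wild type for Mdm2, 1.84 in knockout and 3.19 in wild type for Cdkn1a, and 1.76 in knockout and 3.13 in wild type for Btg2. For Ccng1 it was 1.44 in knockout and 2.25 in wild type, and for Ppm1d 1.85 in knockout and 1.88 in wild type, from the authors' deposited tables. The median over the 10092 genes whose mean count reached 100 was 1.07 in knockout and 1.08 in wild type MEFs. For 7 members the wild type ratio was the larger, and for Trp53 it was 1.28 in knockout and 0.967 in wild type MEFs in the authors' deposited tables. In podocytes the ratio in the authors' deposited tables was 3.10 in knockdown and 1.80 in scramble cells for Mdm2, and 2.19 in knockdown and 1.60 in scramble cells for Ccng1. For Zmat3 it was 1.68 in knockdown and 1.34 in scramble cells, and for Plk2 1.44 in knockdown and 0.795 in scramble cells, in the authors' deposited tables. The median over 1336 genes listed in both podocyte tables whose mean count reached 100 was 0.839 in knockdown and 0.872 in scramble cells.

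The Mof effect was then compared between the cell types, a test chosen after the values were seen. MEFs and podocytes also differ here in knockout against knockdown, in drug dose and in passage, and these cannot be told apart. Podocyte values exist only for genes that passed there, so that side of each difference was selected. With vehicle all 4 members listed in podocytes had a higher log2 fold change in MEFs, against 55.9% of 1897 genes called, 24.9% higher and 31.0% lower in MEFs. Those 4 had passed as lower in podocytes, and the 6 members not listed have no test. The MEFs minus podocytes difference from the authors' deposited tables was 1.61 ± 0.15 for Mdm2, 1.21 ± 0.16 for Zmat3, 1.19 ± 0.13 for Ccng1 and 0.93 ± 0.15 for Plk2 (adjusted p = 1.44e-23, 9.81e-13, 7.07e-18 and 1.00e-08 by the Wald test on the DESeq2 values). With Adriamycin 5 of 9 members differed, 2 higher and 3 lower in MEFs, against 79.3% of 8842 genes, 38.8% higher and 40.5% lower, so the members' share is below the background. Centring each table on its median, a shift of 0.15 in podocytes, made this 3 higher and 2 lower, as Ccng1 passed at 0.26 and Plk2 no longer did. From the authors' deposited tables the difference was -1.15 ± 0.16 for Mdm4 and -0.47 ± 0.10 for Btg2, and 0.87 ± 0.12 for Ppm1d and 0.78 ± 0.13 for Zmat3 (adjusted p = 5.44e-12, 3.44e-06, 5.72e-12 and 1.77e-09 by the Wald test on the DESeq2 values). Plk2, at -0.37 ± 0.16 in the authors' deposited tables, passed narrowly (adjusted p = 0.0234 by the Wald test on the DESeq2 values) and had an adjusted p of 0.211 after that centring. Mdm2 at 0.01 ± 0.10, Cdkn1a at -0.05 ± 0.08, Gtse1 at 0.02 ± 0.12 and Ccng1 at 0.10 ± 0.09 in the authors' deposited tables did not pass, which does not show that the cell types responded alike. The drug difference in MEFs minus that in podocytes was -1.60 ± 0.18 for Mdm2, -1.31 ± 0.22 for Plk2 and -1.10 ± 0.16 for Ccng1, from the authors' deposited tables (adjusted p = 1.84e-16, 2.32e-08 and 4.67e-11 by the Wald test on the DESeq2 values), and -0.43 ± 0.20 for Zmat3, which did not pass. That is 3 of 4 members, all lower in MEFs, against 56.0% of 1437 genes, 28.3% higher and 27.8% lower. These genes too were limited to those that passed in podocytes in both conditions.

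Over the 6952 genes whose mean count reached 100 in each of the 3 tables that list Cdkn1a, the smallest Euclidean distance to its 3 log2 fold changes was that of Pid1 at 0.122. Mdm2 came next at 0.165, followed by Parp12 at 0.171, Ephx1 at 0.185 and Pik3r3 at 0.290, all computed from the authors' deposited tables. The distance covers 3 comparisons and is a description of likeness.

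Other p53 targets that act in arrest were mostly higher in knockout MEFs where they passed. Of 10 such genes, 7 were higher and none lower with Adriamycin (median log2 fold change 0.54), and 5 were higher and 1 lower with vehicle (0.60), in the authors' deposited tables. Over all genes tested, 16.6% were higher and 16.1% lower with Adriamycin, and 17.8% and 19.6% with vehicle. With vehicle Ptprv, a receptor phosphatase induced by p53, had a log2 fold change of 2.16 ± 0.23 and Cgref1, a growth regulator, one of 1.24 ± 0.16 in the authors' deposited table. E2f7, a repressor of E2F genes that is both a p53 target and cell cycle dependent, was the one lower gene, at -1.17 ± 0.12 in the authors' deposited table. In podocytes with Adriamycin 4 were listed higher, led by E2f7 at 0.83 ± 0.05 and Cdkn2a at 0.82 ± 0.06, in the authors' deposited table. There 2 were lower, Sfn at -1.06 ± 0.11 and Pml at -0.32 ± 0.05. Of all genes tested in those podocytes, 27.8% were higher and 27.9% lower. Cdkn2a was also counted among the regulators of p53, so its rise cannot be read as that of a p53 target. It did not pass in MEFs in either condition.

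Of 48 p53 targets outside arrest, 25 of 47 tested were higher and 1 lower in MEFs with Adriamycin, and 36 were higher and 3 lower with vehicle (medians 0.27 and 0.47), in the authors' deposited tables. The shares over all genes tested were 16.6% higher and 16.1% lower with Adriamycin, and 17.8% and 19.6% with vehicle. The smallest adjusted p among the higher genes was that of Gdf15, a secreted stress cytokine, with Adriamycin (1.42 ± 0.17) and that of Tap1, a peptide transporter of antigen presentation, with vehicle (2.10 ± 0.15), in the authors' deposited tables. In podocytes 15 were listed higher and 22 lower with Adriamycin and 4 higher and 11 lower with vehicle in the authors' deposited tables. The podocyte shares over all genes tested were 27.8% higher and 27.9% lower with Adriamycin, and 8.70% and 5.64% with vehicle. There Gdf15 was at 1.37 ± 0.08 and Trp53i11 at -1.45 ± 0.05 with Adriamycin in the authors' deposited table.

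Genes that regulate p53 were called in both directions. Of 39, among them Kat8 itself, 8 were higher and 5 lower in MEFs with Adriamycin and 4 higher and 10 lower with vehicle (medians 0.06 and -0.03) in the authors' deposited tables. Kat8 is one of the lower genes in both conditions. Over all genes tested, 16.6% were higher and 16.1% lower with Adriamycin, and 17.8% and 19.6% with vehicle. Whether the list departs from these shares was not tested. Npm1, a nucleolar protein that binds MDM2, was at 0.55 ± 0.11 with Adriamycin in the authors' deposited table, and Aurka, a mitotic kinase that phosphorylates p53, at -1.07 ± 0.11 with vehicle. In podocytes with Adriamycin 18 were listed higher and 13 lower in the authors' deposited table, with Mtbp, an MDM2-binding protein, at 0.93 ± 0.05 and Sirt1, a deacetylase of p53, at -0.92 ± 0.08. Of all genes tested there, 27.8% were higher and 27.9% lower.

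Genes downstream of p21 were examined next, and whether their knockout effect differed between the drug conditions was not tested for the list. Of 35 replication and mitosis genes that p21 and DREAM repress, all 35 were lower in knockout MEFs with vehicle, against 19.6% of all genes tested, with a median log2 fold change of -1.19 in the authors' deposited table. Their summed level was 37210 in knockout and 75954 in wild type MEFs, and Ccnb2, a mitotic cyclin, was at -1.80 ± 0.11 in the authors' deposited table. With Adriamycin 1 was higher and 4 lower of 33 tested (median -0.24), against 16.6% and 16.1% of all genes tested. The summed level was 6209 in knockout and 6300 in wild type MEFs in the authors' deposited table. In podocytes with Adriamycin 24 were listed higher and 7 lower, against 27.8% and 27.9% of all genes tested. Top2a, the topoisomerase that Adriamycin traps, was at 1.17 ± 0.05 there and Cdc20, an activator of mitotic exit, at -0.62 ± 0.05, in the authors' deposited table. In podocytes with vehicle 5 were listed higher and 0 lower, against 8.70% and 5.64% of all genes tested. Of 26 genes of the G1 machinery, 4 were higher and 11 lower in MEFs with vehicle, where Ccnd2 was at 0.91 ± 0.10 and Ccna2 at -1.50 ± 0.12, and 14 were listed higher and 5 lower in podocytes with Adriamycin, where Cdk2 was at 1.41 ± 0.06, in the authors' deposited tables. Of 23 paralogs of the members, 6 of 20 were higher and 4 lower in MEFs with vehicle, with Cdkn1c, which encodes the related inhibitor p57, at 1.22 ± 0.17, against -1.95 ± 0.17 in podocytes with Adriamycin, in the authors' deposited tables. For the G1 and paralog counts, the shares over all genes tested were 17.8% higher and 19.6% lower in MEFs with vehicle. They were 27.8% and 27.9% in podocytes with Adriamycin.

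Markers of macrophages, cells that early MEF cultures can hold, also moved in the vehicle MEFs. With vehicle 6 of 10 were higher in the authors' deposited table, against 17.8% of all genes tested. None was at 0, and their summed level was 4628 in knockout and 2362 in wild type MEFs. With Adriamycin 0 of 9 tested passed by the authors' DESeq2, 0 of them also at an unadjusted p below 0.05, and the sum was 5812 in knockout and 4319 in wild type MEFs. In podocytes with vehicle 1 marker was listed, Csf1r, which was higher in knockdown cells at 1.15 ± 0.21. In podocytes with Adriamycin 1 was higher, Csf1r at 2.65 ± 0.18, and 1 lower, Cd68 at -0.47 ± 0.09. What part macrophages had in the values above was not tested.

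**Figure D4:**
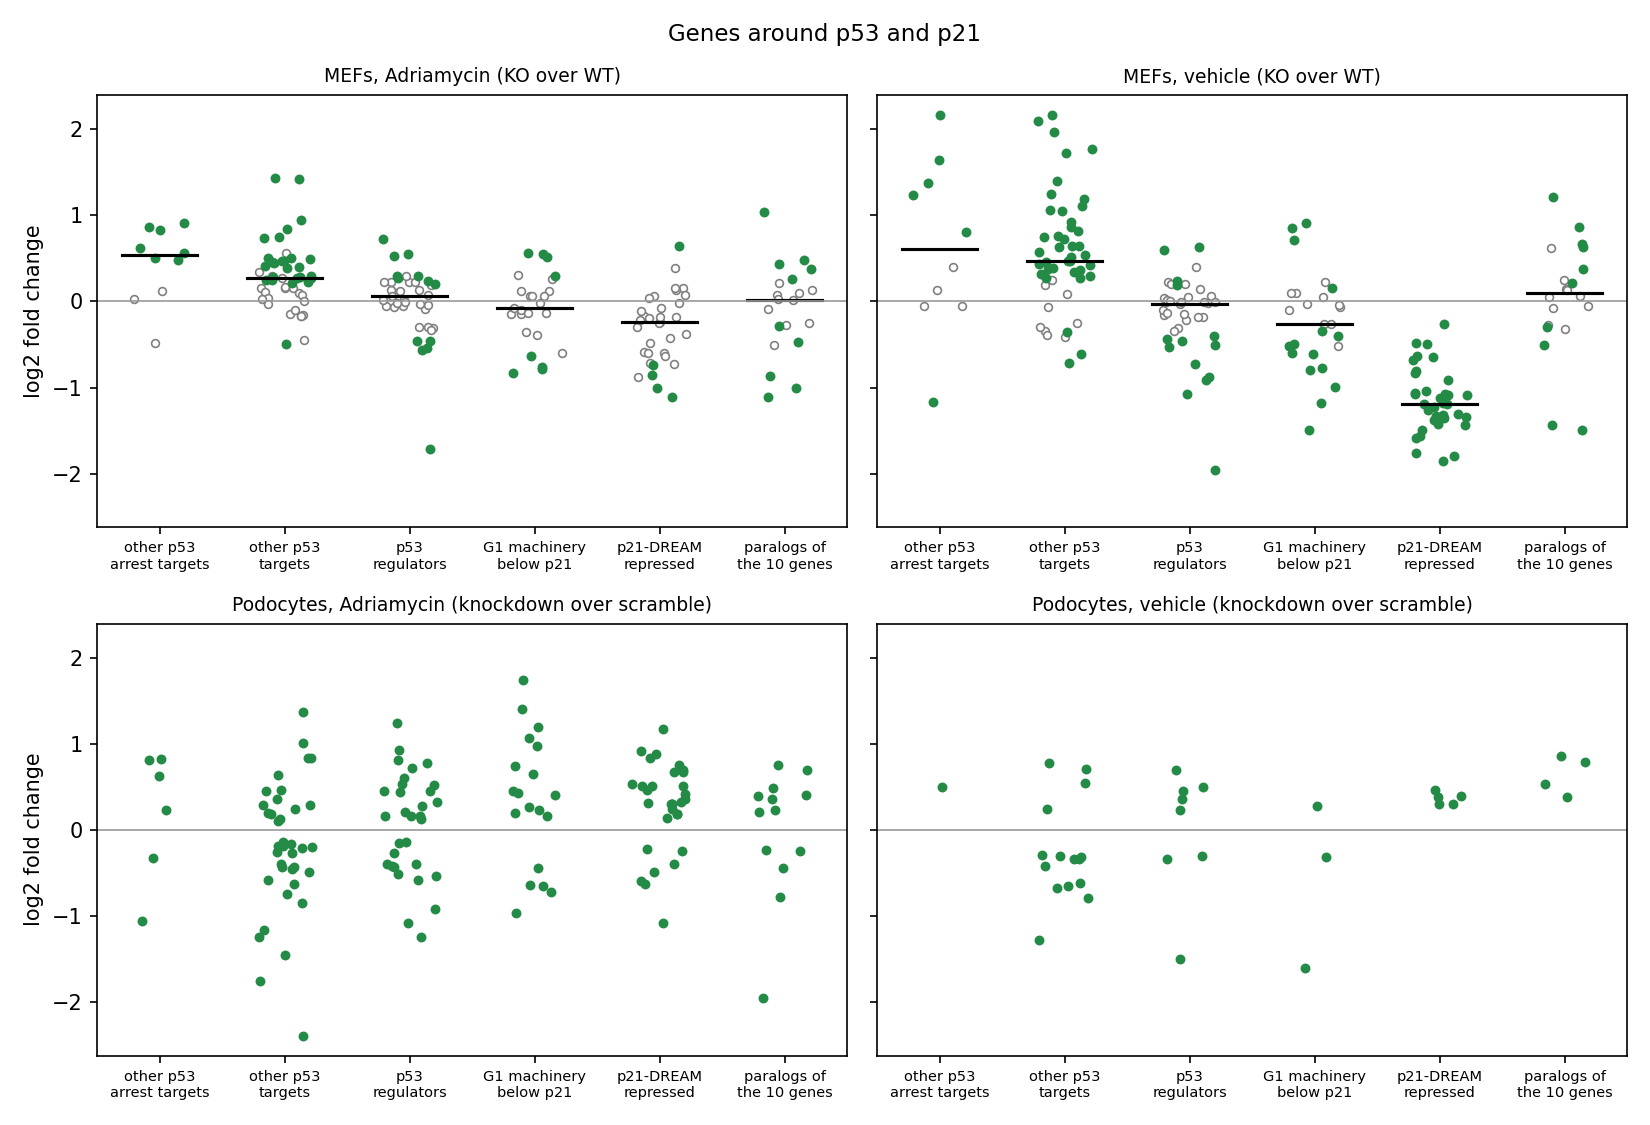
Log2 fold change of Mof-depleted over control cells for every gene of 6 pathway lists in the 4 tables; filled points passed an adjusted p of 0.05, bars are medians (MEFs only), and the podocyte panels hold only listed genes, which all passed. In vehicle MEFs the 35 genes repressed by p21 and DREAM have a median of -1.19, and the other p53 arrest targets one of 0.60.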

How the data were processed

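RNA of Mof-depleted and control MEFs and MPC5 podocytes was sequenced from poly(A) libraries, per the labels' protocols. The submitters' processing notes name TopHat2 2.0.13, featureCounts 1.4.5-p1, DESeq2 1.4.1 and GRCm38. The deposited files are 4 tables of the authors' comparisons, 1 for each pairing of cell type with drug or vehicle. The signal column is the authors' mean count over the samples of a table after division by size factors. The log2 fold changes and their standard errors are the authors' own. The score is the authors' Wald statistic, checked to equal the fold change over its error. The p-values and adjusted p-values are the authors' too. DESeq2 of that version can shrink fold changes, which makes those of low genes smaller, and the notes do not say whether this was done. A gene was called at an adjusted p below 0.05. The podocyte tables list only such genes, so the number tested was recovered from the ratio of adjusted p to p. Since Kat8 had a negative sign in every table, fold changes were taken to be Mof-depleted over control.

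Group levels were computed by splitting the mean count by the fold change, with 3 samples a side. Differences between comparisons were tested with a two-sided Wald test on the difference of fold changes over its combined error, with Benjamini-Hochberg adjustment over all genes tested. The test was tried on simulated data whose noise was drawn from the standard errors of the MEF comparisons. Such data take those errors as right, so the trial cannot show whether they are. Tables were normalised separately, so levels of different tables were not tested. Coordinates are from GENCODE M21 and promoter windows from RefSeq (GRCm38.p6). Named were all 10 members, up to 2 higher and 2 lower genes of each list with the smallest adjusted p, and the 5 genes nearest to Cdkn1a. Not every gene of that rule is printed. The members and lists were chosen with earlier results of these data known, and the lists are not independent evidence. Depth per library and spread per sample are unknown, which limits precision to the deposited standard errors. Python 3.11.15, pandas 2.3.3, NumPy 2.4.6, SciPy 1.17.1 and matplotlib 3.10.9 were used.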

Additional observations from a re-analysis of the deposited data

Results flagged for a closer look

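The Mof effect on several members differed between conditions or cell types by the Wald test on the authors' fold changes, and no explanation was weighed for any of them. Between Adriamycin and vehicle in MEFs the difference in log2 fold change was 0.40 for Trp53, -0.81 for Mdm2, -0.79 for Cdkn1a, -0.64 for Ccng1 and -0.83 for Btg2. In podocytes it was 0.78 for Mdm2, 0.46 for Ccng1, 0.86 for Plk2 and 0.33 for Zmat3. Between MEFs and podocytes with Adriamycin it was -1.15 for Mdm4, 0.87 for Ppm1d, -0.47 for Btg2, -0.37 for Plk2 and 0.78 for Zmat3. Between MEFs and podocytes with vehicle it was 1.61 for Mdm2, 1.19 for Ccng1, 0.93 for Plk2 and 1.21 for Zmat3. The drug difference in MEFs minus that in podocytes was -1.60 for Mdm2, -1.10 for Ccng1 and -1.31 for Plk2. Cell type cannot be told apart from knockout against knockdown, dose and passage, and podocyte values exist only for genes that passed there.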

How the results depend on the processing

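Of 45 alternative settings of the 9 counts of members, 38 kept the count within 1.5 times. That measure ignores direction, so it could not show a reversal. MEFs minus podocytes with Adriamycin had 2 members higher and 3 lower. Centring made this 3 higher and 2 lower, and matching the spread of the fold changes 4 higher and 2 lower. A fold of at least 2 left 0 of the 7 members called in MEFs with Adriamycin, 2 with vehicle (Cdkn1a and Mdm2), 1 in podocytes with Adriamycin (Mdm4) and 0 with vehicle. Bonferroni adjustment left 3 in MEFs with Adriamycin (Cdkn1a, Ppm1d and Trp53), 5 with vehicle and 1 in podocytes with vehicle (Zmat3). Of 339 settings of 64 single-gene values, 280 kept their call and direction and 5 changed sign, from main values that had not passed, and the cause was not tested. Cdkn1a with Adriamycin, MEFs minus podocytes, was -0.05 and became 0.12 when each table was centred and 0.33, which passed, when the spread of the fold changes was matched. Under that matching Gtse1 also passed, at 0.52. Matching turned the drug difference in MEFs to 0.16 for Ppm1d and 0.031 for Zmat3, and centring on genes whose mean count reached 1000 turned Plk2 in MEFs with Adriamycin to -0.0048. Centring moved the podocyte tables by 0.23 with Adriamycin and 0.34 with vehicle, medians over listed genes only. The tests between cell types, and their alternatives, were chosen after seeing the data. No paired analysis was possible because the tables hold no value per sample, and for the same reason no replicate could be left out and no other normalization of counts was run.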
